A study of Mus musculus with 6 samples.

Results

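The Zscan4 genes Zscan4a to Zscan4f form a cluster of near-identical copies on mouse chromosome 7. They were chosen by symbol, as the rows of the authors' deposited table named Zscan4 followed by a letter from a to f. The rule itself used no measured value, but it was set with earlier results of these data known. Of the 6 symbols, 5 (Zscan4a, Zscan4b, Zscan4c, Zscan4d and Zscan4f) have a row among the 25239 genes of the table, and Zscan4e was not analysed here. RNA was sequenced from E14 cells, a mouse embryonic stem cell line grown in N2B27 medium with LIF and 2i. One group of 3 libraries came from cells transfected with siRNA against Ehmt2, the H3K9 methyltransferase also called G9a, and the other group of 3 libraries from cells given control siRNA. Both groups received 2 μl of a 40 μM siRNA stock by lipofection and were collected at day 3. The comparison thus concerns a transient knockdown in bulk cultures of a single line. The labels do not say whether the libraries came from separate cultures, so p-values measure the spread between these libraries, which may be technical.

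Zscan4 proteins carry a SCAN domain and zinc fingers. Their transcripts mark the 2-cell embryo and a rare, transient state of stem cell cultures that resembles it, called 2-cell-like. In mouse stem cells the family is known for its part in telomere lengthening and genome stability, and it lies downstream of the homeobox factor Dux. H3K9 methylation, which Ehmt2 deposits, is a repressive chromatin mark. The question addressed is whether transcripts of the cluster change when Ehmt2 is reduced.

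The table gives 1 comparison. Each gene has the mean of its normalized counts over the 6 libraries, the log2 ratio of the groups and a p-value, but no value per library. Read totals are therefore unknown and the spread within a group can be given only through the interval implied by each deposited p-value. Ehmt2 itself had implied means of 3313 normalized counts with Ehmt2 siRNA and 9539 with control siRNA (a log2 fold change of -1.53 in the authors' deposited table). The table does not name the numerator, so this fall set the direction of every fold change and Ehmt2 cannot check the labels independently. Defining markers of embryonic stem cells were abundant, with all 7 of those listed between 19551 and 86255 mean normalized counts in the authors' deposited table. None of the 7 passed the test, although the authors' DESeq2 comparison has 1 higher and 1 lower when p is left unadjusted (p under 0.05).

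The RefSeq sequences next to the transcription starts are shown first, because they are what the copies share beyond their names. RefSeq (GRCm38.p6) places the cluster at chr7:10794241-11402318, a span of 608 kb, and its table of start sites holds 4 of the copies. Each line below runs 5′ to 3′ along the gene's own strand for 166 bases and ends upstream of the annotated start. The capitals mark the word TATAAA and an earlier word, TGATAGAATCA.
Zscan4b: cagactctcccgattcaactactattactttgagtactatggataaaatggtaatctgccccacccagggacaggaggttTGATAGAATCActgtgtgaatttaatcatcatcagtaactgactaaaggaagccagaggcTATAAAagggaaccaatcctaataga
Zscan4c: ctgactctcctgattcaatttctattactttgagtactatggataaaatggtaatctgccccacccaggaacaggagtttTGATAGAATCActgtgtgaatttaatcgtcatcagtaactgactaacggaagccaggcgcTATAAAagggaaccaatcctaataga
Zscan4d: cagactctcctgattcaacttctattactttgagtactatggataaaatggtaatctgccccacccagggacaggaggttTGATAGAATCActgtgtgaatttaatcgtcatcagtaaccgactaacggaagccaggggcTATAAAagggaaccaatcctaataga
Zscan4f: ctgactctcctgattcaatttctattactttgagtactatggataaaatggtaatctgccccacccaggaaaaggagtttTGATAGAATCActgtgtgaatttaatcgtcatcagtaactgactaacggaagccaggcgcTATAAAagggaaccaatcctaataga
The stretch of Zscan4b is chr7:10905056-10905221 on the minus strand and that of Zscan4d is chr7:11166188-11166353 on the minus strand. The stretch of Zscan4c is chr7:11005551-11005716 on the plus strand and that of Zscan4f is chr7:11397744-11397909 on the plus strand. Only 12 of the 166 positions vary among the 4 copies. Relative to Zscan4d, and counting from 1 at the 5′ end of each line, Zscan4b differs at 6 positions (T11C, T21A, G108A, C120T, C127A, G137A) and Zscan4c at 6 (A2T, C19T, G70A, G78T, C120T, G138C). Zscan4f has the changes of Zscan4c plus C72A. CG dinucleotides were few, with 3 in each stretch except 1 in that of Zscan4b.

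TATAAA, the TATA box word, begins 31 bases upstream of the RefSeq start in Zscan4b and Zscan4f, 54 bases upstream in Zscan4c and 65 bases upstream in Zscan4d. Across all 32817 RefSeq start windows of 300 bases, counted on both strands, 13.6% hold this word. The word TGATAGAATCA reads TGATTCTATCA on the other strand. It is a pair of short homeobox sites, TGATT and ATCA with any 2 bases between them, which is close to the reported binding motif of mouse Dux. All 4 copies hold the pair, 60 bases ahead of TATAAA, and 68 of the 32817 windows hold it on either strand (0.207%). TGCACAC, a word reported to be bound by Zscan4 itself, was in none of the 4 windows and in 4.40% of all windows, and CCGCCC, a GC box, was in none of the 4 and in 35.6%. These matches describe letters and not binding. Among other genes with this pair in a start window, 29 were tested and 1 of them passed the test, Abcb5, a transporter gene named after its value was seen (a log2 fold change of 2.05 in the authors' deposited table). Its mean was only 8.90 normalized counts, and its Benjamini-Hochberg adjusted p, 0.0461, was just under the threshold of 0.05. The share of 1 in 29, 3.45%, compares with 5.57% rising among 15503 other tested genes that have a start window.

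Within the transcripts the copies differ enough to be told apart in places. The next lines show the 100 bases of coding sequence, taken from GENCODE release M21 transcripts on GRCm38, where the 5 measured copies vary most. Capitals mark the 13 positions that differ between copies.
Zscan4a: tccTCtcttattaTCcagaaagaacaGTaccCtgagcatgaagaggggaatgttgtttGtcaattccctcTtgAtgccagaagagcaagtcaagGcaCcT
Zscan4b: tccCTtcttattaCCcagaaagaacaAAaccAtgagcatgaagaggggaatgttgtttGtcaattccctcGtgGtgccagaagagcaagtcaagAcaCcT
Zscan4c: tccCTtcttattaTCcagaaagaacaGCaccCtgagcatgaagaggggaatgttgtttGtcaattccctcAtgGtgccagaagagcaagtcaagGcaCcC
Zscan4d: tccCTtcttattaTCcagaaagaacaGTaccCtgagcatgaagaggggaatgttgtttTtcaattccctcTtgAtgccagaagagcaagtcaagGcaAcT
Zscan4f: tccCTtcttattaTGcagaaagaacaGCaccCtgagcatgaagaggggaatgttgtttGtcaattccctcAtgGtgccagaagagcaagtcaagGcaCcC
Zscan4a is annotated as a pseudogene and is shown over the homologous bases. The 5 sequences are all distinct here, although Zscan4f differs from Zscan4c at 1 base, whereas Zscan4a and Zscan4d differ from Zscan4c at 6 bases each and Zscan4b at 7. Over whole transcripts the 10 pairs of measured copies were 96.6% to 99.5% identical. The closest of these pairs was Zscan4c with Zscan4f, with 9 differing bases over 1806 aligned. Zscan4f was closer still to Zscan4-ps2, a RefSeq pseudogene with no row in the table, at 4 differing bases over 1806. Zscan4e, absent from the measured set, differed from Zscan4b at 5 of 1722 aligned bases.

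These differences set how much of each copy a read can identify. Of the 150-base windows of the Zscan4d transcript, the length of 1 read, 87.0% occur in no other Zscan4 transcript. The same share was 74.9% for Zscan4a, 39.0% for Zscan4c, 31.6% for Zscan4b and 13.8% for Zscan4f. With windows of 260 bases, about the fragment length that the labels state, the shares were 98.5% for Zscan4d, 86.9% for Zscan4a, 63.7% for Zscan4c, 55.7% for Zscan4b and 27.5% for Zscan4f. Thus, over these annotated transcripts, Zscan4d and Zscan4a are largely distinguishable and Zscan4f largely is not. The transcripts differ in length, with 1779 bases for Zscan4b and 1829 for Zscan4f, against 2272 for Zscan4d, 2276 for Zscan4c and 2279 for Zscan4a. The shares therefore do not cover the same stretch in every copy. The sources used here do not say how the authors' counting treated reads that fit several copies, so each copy's own level is uncertain. Reads from Zscan4e and from 3 annotated Zscan4 pseudogenes, which have no row either, may also fall on the measured copies. The sequences are of the reference mouse strain and not of E14.

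**Figure D1:**
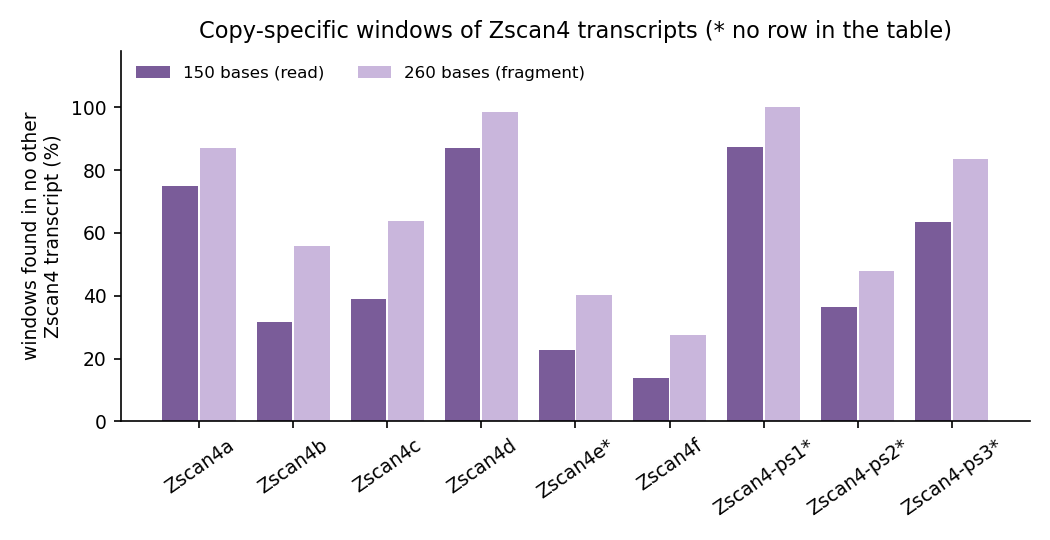
Share of windows of each Zscan4 transcript (percent, vertical axis) that occur in no other of the 9 annotated Zscan4 transcripts, for 150-base windows (dark bars) and 260-base windows (light bars), with asterisks on copies that have no row in the table. Zscan4d stands at 87.0% and Zscan4f at 13.8% for the shorter window.

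All 5 measured copies rose after Ehmt2 siRNA, by 5.12-fold to 9.64-fold, where 5.45% of the 20461 tested genes rose and 4.82% fell. A gene was called when its p-value, adjusted here by the Benjamini-Hochberg method over all tested genes, was below 0.05. The group means given below are those that the deposited mean and fold change imply. In a bulk culture, more cells in the state that expresses Zscan4 and more Zscan4 RNA per cell cannot be told apart.

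Zscan4d, a protein-coding copy reported as the predominant one of the 2-cell embryo, had the largest fold change of the 5. It had implied means of 125.1 normalized counts with Ehmt2 siRNA and 12.97 with control siRNA. The authors' deposited table gives it a log2 fold change of 3.27, with an implied 95% interval of 2.38 to 4.16 (adjusted p 8.02e-11). It ranked 134 among all tested genes by p-value. Zscan4a, the transcribed pseudogene, had implied means of 205.3 normalized counts with Ehmt2 siRNA and 34.6 with control siRNA. The authors' deposited table gives it a log2 fold change of 2.57 (interval 1.57 to 3.57, adjusted p 2.27e-05). These 2 copies, which both rose, have the most copy-specific reference sequence of the 5. Whether shared reads contributed to their rise was not tested.

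Zscan4c, a protein-coding copy reported to predominate in stem cells, had implied means of 174.5 normalized counts with Ehmt2 siRNA and 34.1 with control siRNA. The authors' deposited table gives it a log2 fold change of 2.36 (interval 1.42 to 3.30, adjusted p 3.83e-05). Zscan4f, which has the smallest share of windows of its own among the 5, had implied means of 86.98 with Ehmt2 siRNA and 15.9 with control siRNA. In the authors' deposited table it stood at a log2 fold change of 2.45 (interval 1.52 to 3.39, adjusted p 1.33e-05). Zscan4b was the least abundant copy, with implied means of 33.99 with Ehmt2 siRNA and 6.16 with control siRNA. It rose by a log2 fold change of 2.46 in the authors' deposited table (interval 1.33 to 3.59, adjusted p 5.28e-04). Under the stricter Holm adjustment Zscan4b did not pass (adjusted p 0.371), and the other 4 copies did.

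**Figure D2:**
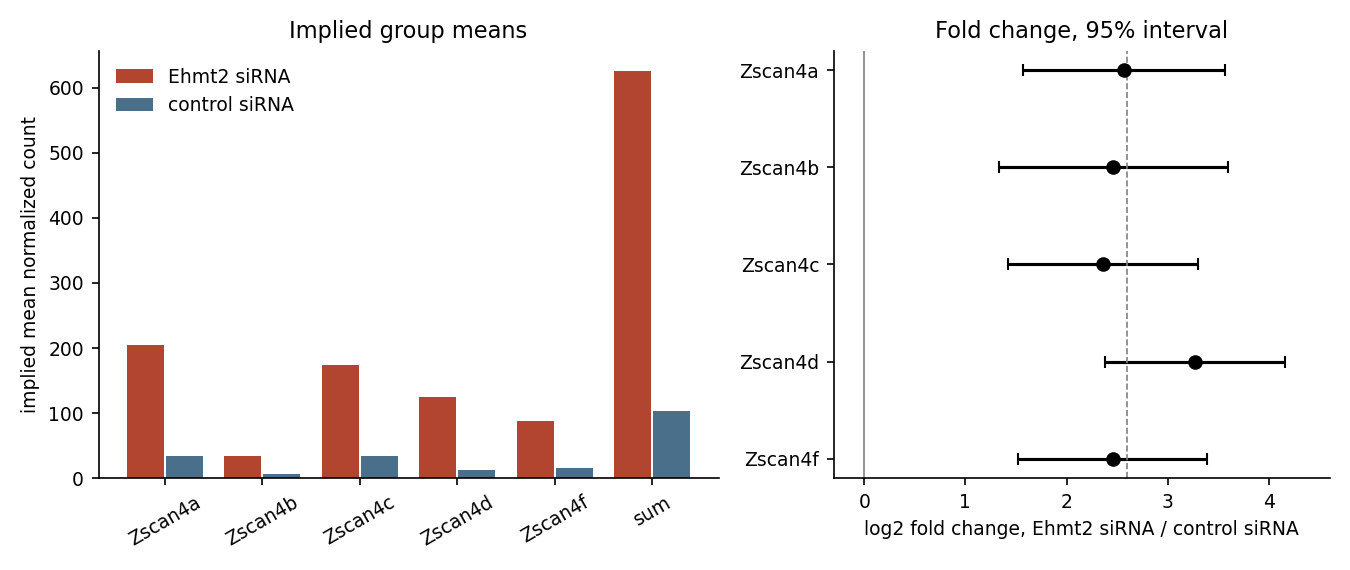
Left, implied mean normalized count of each Zscan4 copy and of their sum with Ehmt2 siRNA (red) and control siRNA (blue). Right, log2 fold change of each copy with its implied 95% interval, where the dashed line marks the fold change of the sum, 2.59, and all intervals lie above 0.

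The copies' intervals share the range from 2.38 to 3.30. The value of Zscan4c, 2.36, lies just below the lower end of the Zscan4d interval, and the other 3 copies stand between 2.45 and 2.57. Differences between copies were not tested, since they come from the same libraries and may share reads. Per kilobase of annotated transcript the mean over all libraries was 52.6 normalized counts for Zscan4a, 45.8 for Zscan4c, 30.4 for Zscan4d, 28.1 for Zscan4f and 11.3 for Zscan4b. This order depends on the annotated lengths, which are shorter for Zscan4b and Zscan4f. Zscan4d and Zscan4f are neighbours in that order with close levels, and no error on these levels can be had from the table. Zscan4d gave 20.0% of the implied family sum with Ehmt2 siRNA and 12.5% with control siRNA, the widest gap between groups of any copy. Zscan4c gave 27.9% with Ehmt2 siRNA and 32.9% with control siRNA. The shares of Zscan4a (32.8% with Ehmt2 siRNA, 33.4% with control siRNA), Zscan4f (13.9% with Ehmt2 siRNA, 15.3% with control siRNA) and Zscan4b (5.43% with Ehmt2 siRNA, 5.94% with control siRNA) were close between the groups.

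Summed over the 5 copies, the mean over all libraries in the authors' deposited table was 364.8 normalized counts. The implied sums were 625.8 normalized counts with Ehmt2 siRNA and 103.7 with control siRNA, a 6.04-fold difference (log2 fold change 2.59). A sum does not depend on how reads were divided among the measured copies, provided each read was counted for a single copy. Reads left uncounted because they fit several copies would be missing from it. Reads counted for every copy they fit would enter the sum repeatedly. The sum has no interval, since the covariance of the copies is unknown. Even at this level the family was a small part of the transcriptome, at 8.74 per 1000000 normalized counts with Ehmt2 siRNA and 1.45 per 1000000 with control siRNA.

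The Zscan4 changes were large among genes of like abundance. Of 15146 tested genes with a mean of at least 10 normalized counts, Zscan4d ranked 39 by log2 fold change, Zscan4a 101, Zscan4b 110, Zscan4f 112 and Zscan4c 124. Between the means of Zscan4b and Zscan4a, 20.1 and 119.9 normalized counts in the authors' deposited table, 2444 genes were tested, of which 9.66% rose and 5.73% fell. Those genes had a median log2 fold change of -0.04. Only 64 of them (2.62%, the Zscan4 copies included) had a log2 fold change as high as that of Zscan4c or higher. The implied standard errors of the copies on the log2 scale were 0.45 for Zscan4d, 0.48 for both Zscan4c and Zscan4f, 0.51 for Zscan4a and 0.58 for Zscan4b. These errors were above the median over the 2444 genes, 0.36. Of those genes, 80.9% had a smaller error than Zscan4d, the lowest of the copies, and 96.9% a smaller one than Zscan4b, the highest. Zscan4b has the lowest mean of the 2444 genes, so its place partly follows from how they were picked. The copies' errors were not compared with those of genes of like fold change.

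**Figure D3:**
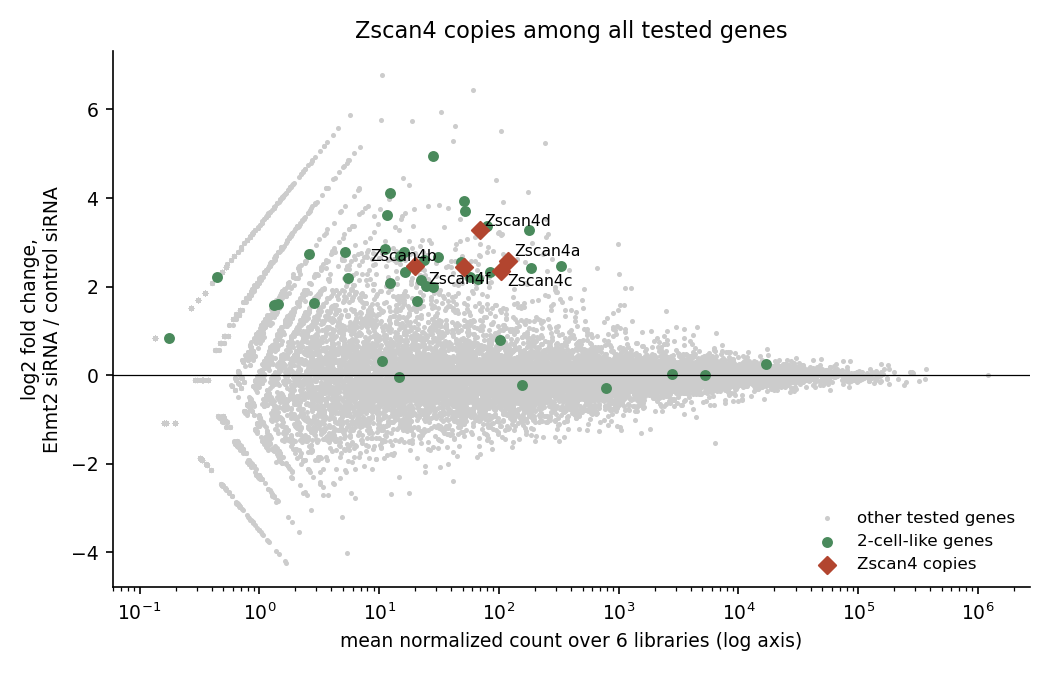
Log2 fold change (vertical axis) against the mean normalized count over 6 libraries (horizontal log axis) for the 20461 tested genes, with Zscan4 copies as red diamonds and a list of 2-cell-like genes as green points. The Zscan4 copies lie between 2.36 and 3.27, at means of 20.1 to 119.9 normalized counts.

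Many, but not all, of the other listed transcripts of the 2-cell-like state were higher as well. Of 49 genes listed, 45 have a row in the table, 5 of these were at 0 in all libraries, and 23 of the 40 tested rose while 17 did not pass. None fell in the authors' DESeq2 comparison, where 27 were higher and 0 lower before adjustment (p under 0.05). The share that rose was 57.5%, against 5.45% of all tested genes. The median log2 fold change over the list was 2.21, against 0.01 over all tested genes. The 23 rises ran from 0.26 to 4.95 on the log2 scale, and 21 of them reached 1. The implied sum of the list was 30150 normalized counts with Ehmt2 siRNA and 25088 with control siRNA. Most of that sum was Fbxo15, named after its value was seen, which had the smallest rise, 0.26, at a mean of 17068 normalized counts. This list was drawn up with earlier results of these data known and its count is no independent support. The count was 11 when p-values were adjusted only over genes with a mean of at least 50 normalized counts and 9 under the Holm adjustment. Of the 17 genes that did not pass, 8 had a mean below 10 normalized counts.

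Usp17la, Usp17lb and Usp17le, which encode deubiquitinases of a clustered family, had log2 fold changes of 3.93, 3.71 and 3.36 in the authors' deposited table. Usp17le had implied means of 145.3 normalized counts with Ehmt2 siRNA and 14.2 with control siRNA, close to those of Zscan4d. Khdc1a, an oocyte KH-domain gene, had implied means of 324.7 with Ehmt2 siRNA and 33.2 with control siRNA, and a log2 fold change of 3.29 (interval 2.63 to 3.95) in the authors' deposited table. Pramel6, a Prame family gene of the early embryo, had a log2 fold change of 2.46 in the authors' deposited table (interval 2.11 to 2.80), close to that of Zscan4b with a narrower interval. Cyp1b1, a cytochrome P450 gene, had a log2 fold change of 2.41 in the authors' deposited table. Usp17l and Khdc1 genes also have near-identical copies that may share reads.

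Some markers of other cell types changed in the same comparison, and their part in the Zscan4 result was not tested. The lists held 5 genes each, all tested and none at 0, so that 1 gene is 20% of a list, against 5.45% rising and 4.82% falling among all tested genes. Of the fibroblast feeder markers 1 rose and none fell in the authors' DESeq2 comparison, with 3 higher and 1 lower before adjustment (p under 0.05). The riser was Col1a2, a fibrillar collagen gene, with implied means of 185.1 normalized counts with Ehmt2 siRNA and 34.3 with control siRNA. Its log2 fold change of 2.43 in the authors' deposited table (adjusted p 3.23e-22) lies within the range of the Zscan4 copies. Col1a1 (-0.39), Thy1 (-1.01), Vim (0.43) and Postn (2.46 at a mean of 5.44 normalized counts, named after its value was seen) did not pass in the authors' deposited table. The implied sum of the list, most of it Vim, was 17711 normalized counts with Ehmt2 siRNA and 13076 with control siRNA.

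Of the trophectoderm markers 1 rose and none fell in the authors' DESeq2 comparison, with 1 higher and 0 lower before adjustment (p under 0.05). Cdx2, a transcription factor of that lineage, had implied means of 617.1 normalized counts with Ehmt2 siRNA and 248.8 with control siRNA. Eomes, at a log2 fold change of -0.47, and Tfap2c, at 0.29, did not pass in the authors' deposited table. The 2 others, each at a mean below 10 normalized counts, did not pass either. The implied sum of the list was 5382 with Ehmt2 siRNA and 4358 with control siRNA. Most of it was Tfap2c, at 4376 with Ehmt2 siRNA and 3577 with control siRNA. Of the primitive endoderm markers 1 rose and 1 fell. Pdgfra, a growth factor receptor gene, rose to 149.0 normalized counts with Ehmt2 siRNA, against 95.7 with control siRNA. After removal of the GC trend Pdgfra did not pass (log2 fold change 0.62, adjusted p 0.0652). Gata4, a transcription factor gene, fell to 112.8 with Ehmt2 siRNA, against 225.8 with control siRNA. The implied sum of this list was 312.8 with Ehmt2 siRNA and 378.7 with control siRNA.

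Known regulators of the state rose in a share near that of all tested genes. Of 48 tested, 2 rose (4.17%, against 5.45% of all tested genes) and none fell in the authors' DESeq2 comparison, where 7 were higher and 1 lower before adjustment (p under 0.05). The median log2 fold change of this list was 0.05. Dux, the homeobox factor that activates Zscan4, had only 2.85 mean normalized counts in the authors' deposited table, with implied means of 4.30 with Ehmt2 siRNA and 1.40 with control siRNA. Its log2 fold change of 1.62 in the authors' deposited table came with the interval -1.03 to 4.27 and failed the test, and that interval holds both 0 and the values of the Zscan4 copies. Dppa2, which acts upstream of Dux, stood at 0.34 (interval 0.08 to 0.60, adjusted p 0.0884), and its partner Dppa4 at -0.01 (interval -0.22 to 0.21) in the authors' deposited table. Neither passed.

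Among repressors, Zmym2, a zinc finger protein that restrains the 2-cell-like programme, rose by a log2 fold change of 0.25 in the authors' deposited table (adjusted p 0.0189). After removal of a trend on GC content it stood at 0.14 and did not pass (adjusted p 0.339). Hdac2, a histone deacetylase, rose by 0.32 in the authors' deposited table (adjusted p 2.26e-07). Trim28, the corepressor that recruits H3K9 methylation to repeats, stood at 0.06 (interval -0.25 to 0.37) in the authors' deposited table. Smchd1, which represses Dux, stood at 0.08 (interval -0.09 to 0.24). Rif1, a telomere-associated repressor of Zscan4, was at 0.10 (interval -0.05 to 0.25). Tbx3, reported to raise Zscan4, was at -0.13 (interval -0.42 to 0.17) in the same table. None of these last 4 passed. E2f6 (-0.17), Ncl (0.14) and Hdac1 (0.12) did not pass either in the authors' deposited table.

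Genes of telomere maintenance, the process with which Zscan4 is most often linked, did not pass. Of 43 tested, 0 rose and 0 fell in the authors' DESeq2 comparison, where 5.45% and 4.82% of all tested genes did, with 4 higher and 3 lower before adjustment (p under 0.05) and a median log2 fold change of 0.02. The smallest adjusted p was that of Terb2, a meiotic telomere attachment gene, at 0.0890 with a log2 fold change of 0.76 in the authors' deposited table. Dmc1, the meiotic recombinase, stood at -0.84 (interval -1.55 to -0.13, adjusted p 0.133). The shelterin genes Tinf2 and Pot1b stood at -0.14 and 0.20, and Tnks2 and Ctc1 at 0.13 and -0.16, all in the authors' deposited table.

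Zscan4 is also reported to lower DNA methylation through loss of Uhrf1 and Dnmt1 protein, which RNA levels do not measure. Dnmt1, the maintenance methyltransferase, stood at -0.06 (interval -0.19 to 0.07) and Uhrf1, its recruiting partner, at -0.12 (interval -0.33 to 0.08) in the authors' deposited table. Neither passed. Of 21 genes of DNA methylation and hydroxymethylation tested, 1 rose and 1 fell (4.76% each, against 5.45% and 4.82% of all tested genes). Zbtb33, a methyl-CpG binding protein, rose by 0.35, and Tet2, a methylcytosine dioxygenase, fell by 0.21 on the log2 scale in the authors' deposited table. After removal of the GC trend Zbtb33 did not pass (log2 fold change 0.24, adjusted p 0.158).

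Among other genes that encode SCAN domain zinc finger proteins, the share that rose was near that of all tested genes. Of 23 other Zscan and Zkscan genes, all of them tested, 1 rose (4.35%, against 5.45% of all tested genes). None fell in the authors' DESeq2 comparison, and before adjustment (p under 0.05) 3 were higher and 0 lower. Zkscan7 rose by a log2 fold change of 0.63 in the authors' deposited table (adjusted p 0.0359), and after removal of the GC trend stood at 0.55 and did not pass (adjusted p 0.0916). Zscan30 followed at 0.43 (adjusted p 0.0643) and did not pass. The list median was 0.04, and its highest value lay below the lower end of the interval of every Zscan4 copy. Their means ran from 64.1 to 6245 normalized counts in the authors' deposited table.

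The DNA around the copies held few measured transcripts. Within the cluster and 500 kb on either side RefSeq lists 67 other genes, of which 12 have a row in the table. Of these, 11 were listed at 0 in all libraries, including all 9 vomeronasal receptor genes there. The 1 tested neighbour was Zik1, a zinc finger gene, with a log2 fold change of 0.20 in the authors' deposited table (interval 0.02 to 0.39, adjusted p 0.175), which did not pass. Its implied means were 1451 normalized counts with Ehmt2 siRNA and 1260 with control siRNA.

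**Figure D4:**
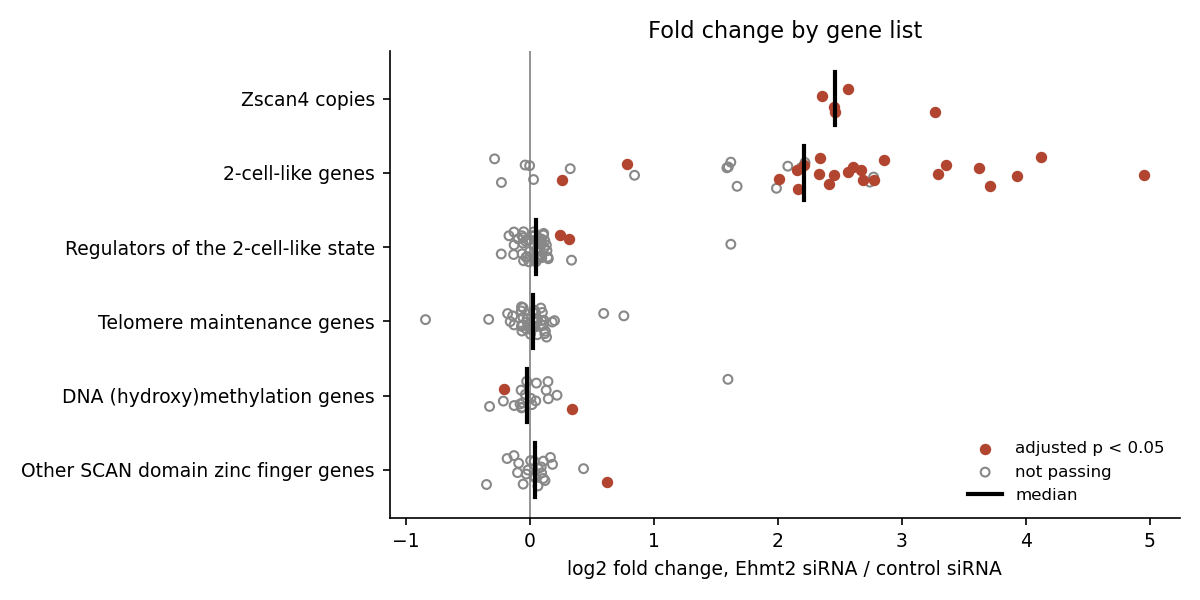
Log2 fold change (horizontal axis) of every tested gene in the Zscan4 family and in 5 gene lists, with filled points for genes that passed the test, open points for those that did not and a bar at each median. The Zscan4 and 2-cell-like medians stand at 2.46 and 2.21, and those of the other lists between -0.02 and 0.05.

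By size of change alone, the genes nearest to the family sum among those that passed with a mean of at least 10 normalized counts, predicted genes and unnamed clones left out, were Adh4 (2.59), Ftdc2 (2.58), Abca13 (2.58), Samd9l (2.58) and Cd209e (2.61), all as log2 fold changes in the authors' deposited table. The measure is the difference in log2 fold change over 1 comparison, at most 0.013 for these 5, and says nothing about levels in single libraries. None of the 5 lies on chromosome 7.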

How the data were processed

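Per the labels' protocols, polyA-enriched RNA of E14 cells given Ehmt2 siRNA (3 libraries) or control siRNA (3) was sequenced in stranded libraries, as pairs of 150-base reads. Trimmomatic 0.36, FastQC, STAR and DESeq2, with builds mm10 and GRCm38, are listed in the submitters' processing notes. Not given there are the annotation, the read counter and its treatment of reads that fit several copies. The authors deposited 1 table. Its signal column, per the file headers, averages size-factor normalized counts over the 6 libraries. Per the file headers, the log2 fold changes compare the groups, and the deposited p-values carry no adjustment. No value per library is in it, so depth is unknown.

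From these, Benjamini-Hochberg adjusted p-values were computed over 20461 tested genes (scipy 1.17.1, threshold 0.05). A standard error was derived for each gene by taking its p-value as that of a Wald test. Group means solve the deposited mean and fold change for 2 groups of equal size. Windows, motifs and MAFFT 7.526 alignments used RefSeq GRCm38.p6 and GENCODE M21, with all 5 measured copies matched. For the GC alternative, a lowess curve (fraction 0.3) on the GC content of the longest transcript, known for 97.2% of tested genes, was subtracted. The adjustment and the implied errors were tested on simulated data, and the group means, window counts and motif counts on made cases. The simulation drew from the implied errors themselves, so recovering them was fixed in advance. The family sum, the ranks and the GC removal were not tested in this way. The fixed design planned for deposited p-values or counts, and the table holds the first.

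The members and gene lists were chosen with earlier results of these data known. Named genes are all members, Ehmt2, a fixed set of regulators, up to 6 members of each list with the smallest p-values and a mean of at least 10, up to 8 neighbours by mean, and the 5 passing genes nearest to the family sum, without predicted genes and unnamed clones. Other genes are named as chosen after their values were seen.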

Additional observations from a re-analysis of the deposited data

How the results depend on the processing

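Of 39 values of the Zscan4 copies under other adjustments, thresholds, centring and removal of the trend on GC content, 38 kept direction and call, with log2 fold changes of 2.28 to 3.27. The exception was Zscan4b under the Holm method (log2 fold change 2.46, adjusted p 0.371), while its other adjusted p-values passed. Under adjustment over genes with a mean of at least 50 Zscan4b gave no value. Only centring and removal of the GC trend recompute a fold change. Under the other settings the direction was fixed and only the call could differ. A filter at a log2 change of 1 could not drop a copy, since the lowest stood at 2.36. The log2 fold change of the family sum stayed within 2.46 to 2.70 over the other ways of combining copies and with each copy left out. Of 112 alternative counts, 93 stayed within 1.5 times the count reported. Many of these 93 were counts of 0 that stayed at 0, which stricter settings could not have changed, so the share says little about stability.

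The counts outside that range were these. The 2-cell-like genes that rose numbered 11 when adjusted over genes with a mean of at least 50 and 9 under Holm, which test fewer genes or are stricter. Regulators that rose numbered 1 under Holm, at an adjusted p below 0.01 and after removal of the GC trend, and 0 when a log2 change of 1 or more was required. DNA methylation genes that rose numbered 0 under each of those 4 settings. Those that fell numbered 2 over genes with a mean of at least 50, and 0 under Holm or with the size filter. Other SCAN genes that rose numbered 2 over genes with a mean of at least 10 or 50, and 0 under Holm, at 0.01, with the size filter and after GC removal. The cause was not tested. Counts over all genes were 312 rises and 213 falls under Holm, against 1116 and 987. With that size filter they were 429 and 155.

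No paired analysis was possible because the table holds no values per library. Leaving out replicates, DESeq2 on counts and adding pseudogene rows could not be run for lack of such values or rows.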
